A study of Mus musculus with 6 samples.

Results

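The tumour necrosis factor (TNF) superfamily consists of trimeric ligands, made as membrane proteins and in part shed, and of the receptors that bind them. Its members were taken as all rows of the deposited count table named TNFSF or TNFRSF with a number, together with TNF, LTA, LTB, LTBR, CD40, CD40LG, CD27, CD70, FAS, FASLG, NGFR and EDAR. This gave 45 of the 20036 genes in the table: 17 ligands, 27 receptors and the read-through gene TNFSF12-TNFSF13.

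The cells were macrophages derived from THP-1, an established human line of acute monocytic leukaemia, and their total RNA was sequenced. PMA, a phorbol ester that turns THP-1 monocytes into adherent macrophage-like cells, was given for 48 h at 100 ng/ml. These cells lay below the porous membrane of a Transwell insert. Tumour cells were then placed above it, and the co-culture ran for 48 h with melittin, a membrane-lysing peptide from bee venom, at 3 µg/ml. There were 3 libraries labelled Melittin and 3 labelled NC, called controls here; the treatment of the control wells, and the presence of tumour cells above them, are not stated, so co-culture and melittin cannot be told apart. All libraries come from 1 cell line. Separate cultures are not mentioned, and p-values therefore measure the spread between these libraries alone, which may be technical. The organism label reads mouse, but all 20036 gene identifiers were human.

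Receptors of this family fall into kinds. Those with a death domain, such as TNFRSF1A, FAS and the TRAIL receptors TNFRSF10A and TNFRSF10B, can recruit FADD and caspase-8. The others bind TRAF adaptors and feed the NF-kB and MAP kinase pathways, and decoy receptors bind ligand without passing on a death signal. Macrophages are a main source of TNF, and they offer several other ligands of the family to lymphocytes and receive CD40 ligand from T cells.

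Library totals ran from 16001423 to 19597781 counts. Of 16 macrophage and monocyte markers 15 were tested, and their summed level was 2640 to 2650 CPM in controls and 2382 to 2451 CPM with melittin. CPM are counts scaled to a common library size with TMM factors, which adjust for the makeup of each library. Within this sum 6 markers were higher and 6 lower with melittin. The scavenger receptor genes CD163 and MSR1 were 7.72-fold and 7.03-fold lower, CSF1R 3.07-fold and CD14 2.13-fold lower, while ITGAM was 2.47-fold higher (chosen after their values were seen). The part of these marker changes in the members' changes was not tested. CD68, a common macrophage marker, had 1 count in all, and the reason was not tested. Counts at or near 0, here and below, therefore need not mean that a transcript was absent. The defining T-cell genes CD3D, CD8A, CD8B and CD28 had 0 counts in every library, as had MS4A1 for B cells and EPCAM, KRT18, KRT19, KRT5, KLK2 and TMPRSS2 for epithelial or prostate tumour cells. The summed level of 11 T and natural killer cell markers was 28.1 to 31.7 CPM in controls and 128 to 133 CPM with melittin, nearly all of it GNLY. That of 8 B-cell markers was 0.578 to 1.03 and 0.890 to 1.27 CPM, and that of 10 fibroblast and endothelial markers 306.9 to 317 and 311 to 324 CPM. Most of this last sum was PECAM1, with means of 288 CPM in controls and 287 CPM with melittin. The part of GNLY in the results was not tested.

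Of the 45 members, 28 had at least 10 counts in 3 libraries, and the same number passed the filter for testing: 13 of 17 ligands and 15 of 27 receptors. Among these 28, 11 were higher and 10 lower with melittin by the edgeR quasi-likelihood test at an adjusted p of 0.05, and 7 were not called. Over all 12029 genes tested 76.4% were called, 38.1% higher and 38.3% lower, so the share of members called lay near the background. At least 2-fold, 7 members were higher and 3 lower, against 9.53% and 9.96% of all genes. The test against a change of 1.5-fold was passed by 12 members, 9 higher and 3 lower, and by 29.1% of all genes. Control and melittin values did not overlap in 23 of the 28 members and in 77.4% of all genes tested. Groups that are apart, as given below for single members, were thus usual in these libraries. TNFRSF18 reached 10 counts only with melittin, and TNFRSF11B, TNFSF11 and TNFSF13 reached it in every library only in the controls. Over the 24 members with 10 counts in all 6 libraries, 10 were higher and 9 lower, with a median log2 fold change of 0.08 beside −0.007 over all genes tested. Under total-count scaling, without TMM factors, the median of all genes became −0.24, and 11 members were higher and 15 lower. The share of all calls that were higher went from 49.8% to 33.6%. As these are bulk samples, fewer cells with a transcript and less of it per cell cannot be told apart.

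**Figure D1:**
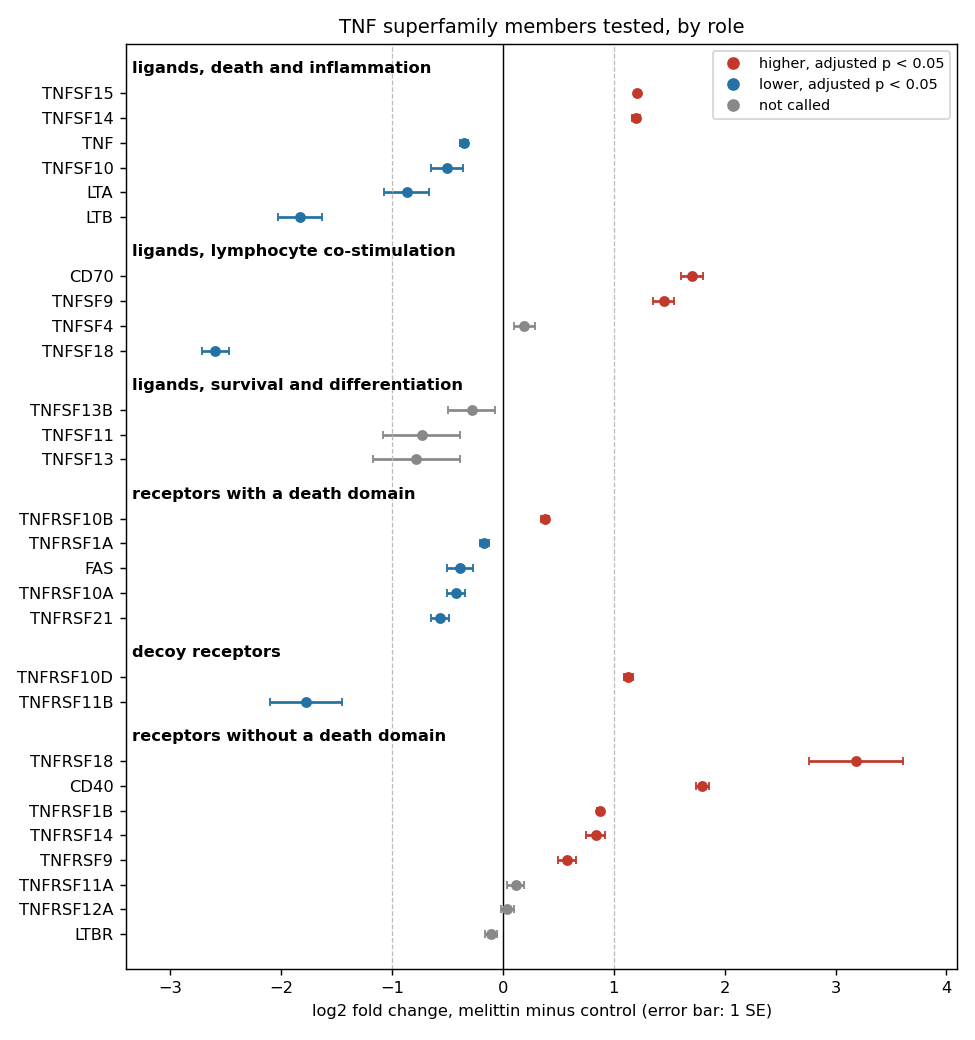
Log2 fold change of melittin minus control (x axis) for the 28 members tested, ordered by role; points are estimates, bars 1 SE, colour the call at an adjusted p of 0.05, dashed lines a 2-fold change. TNFRSF18, CD40, CD70, TNFSF9, TNFSF15, TNFSF14 and TNFRSF10D lie beyond the upper dashed line and TNFSF18, LTB and TNFRSF11B beyond the lower.

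The ligands of death and inflammation moved in opposite directions: TNFSF15 and TNFSF14 rose, and TNF, LTA, LTB and TNFSF10 fell. TNFSF15 (TL1A, a ligand that co-stimulates T cells; chromosome 9, 114784652 to 114806039, minus strand, GRCh38) stood at 249, 262 and 259 CPM in control replicates 1 to 3 and at 609, 592 and 584 CPM in the melittin replicates. Every melittin library was above every control, by 2.32-fold (log2 fold change 1.21, SE 0.0267, edgeR adjusted p = 2.35e-24). Its signalling receptor TNFRSF25 had 0 counts in all libraries, which allows up to 0.0509 CPM in the control group and 0.0621 CPM in the melittin group (3 counts over each group, counting error only). TNFRSF25 overlaps ESPN on the other strand.

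TNFSF14 (LIGHT, a ligand of TNFRSF14 and LTBR; chromosome 19, 6661253 to 6670588, minus strand) was at 74.0, 70.7 and 70.8 CPM in controls and at 162, 164 and 171 CPM with melittin. The groups did not overlap, with a 2.30-fold rise (edgeR adjusted p = 2.4e-21). Its receptor TNFRSF14 (HVEM), which also acts as a ligand for inhibitory receptors of lymphocytes, was at 14.3, 15.5 and 12.5 CPM in controls and 25.4, 25.3 and 25.3 CPM with melittin. Thus ligand and receptor rose in the same libraries, the receptor by 0.84 on the log2 scale (SE 0.0838, edgeR adjusted p = 7.79e-10).

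TNF itself (chromosome 6, 31575565 to 31578336, plus strand) fell. It was at 135, 129 and 140.1 CPM in controls and 105, 104 and 107 CPM with melittin, a change of −0.35 on the log2 scale (SE 0.0361, edgeR adjusted p = 1.1e-09). The ranges were apart, but with TMM factors the change was small and did not pass the test against 1.5-fold. Under total-count scaling the log2 fold change of TNF was −0.58. LTB, the membrane partner with which lymphotoxin alpha binds LTBR (chromosome 6, 31580525 to 31582522, minus strand), was at 5.56, 4.80 and 6.30 CPM in controls and 1.56, 1.67 and 1.41 CPM with melittin. All melittin libraries were below all controls, by 3.55-fold (edgeR adjusted p = 3.86e-09). LTA, lymphotoxin alpha (chromosome 6, 31572054 to 31574324, plus strand), had 94, 104 and 77 counts in controls and 25, 46 and 52 with melittin, and its log2 fold change was −0.87 (SE 0.205, edgeR adjusted p = 0.000422). Among the melittin libraries replicate 1 was the lowest. LTA missed the test against 1.5-fold.

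TNFSF10, which encodes TRAIL, fell from 8.16, 6.73 and 7.57 CPM in controls to 4.23, 5.67 and 5.90 CPM with melittin (log2 fold change −0.50, SE 0.143, edgeR adjusted p = 0.00251). The highest melittin value lay below the lowest control, and the test against 1.5-fold was not passed. FASLG, the ligand of FAS, had 1 count in all libraries. TNFSF12 (TWEAK) and TNFSF12-TNFSF13 were at 0 in every library; they overlap each other on the same strand, and whether reads in the overlap were counted is not given in the sources used here.

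**Figure D2:**
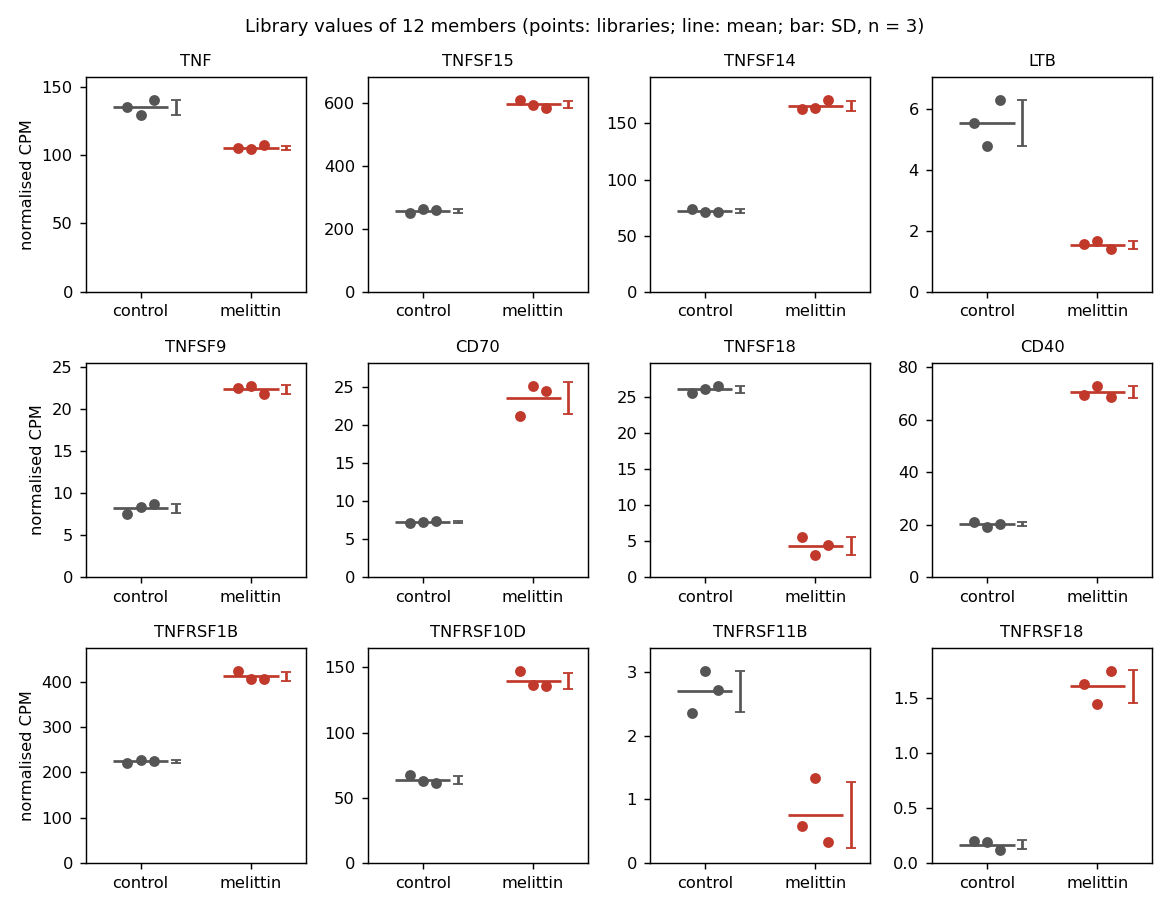
Normalised CPM (y axis, from 0) of 12 members in the 3 control and 3 melittin libraries; points are libraries, lines means and bars SD. In each panel the control and melittin points do not overlap, with TNF, LTB, TNFSF18 and TNFRSF11B lower and the other 8 higher with melittin. The same lack of overlap held for 77.4% of all genes tested.

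Of the ligands that co-stimulate lymphocytes, CD70 and TNFSF9 rose and TNFSF18 fell. CD70, the ligand of CD27 (chromosome 19, 6583183 to 6604103, minus strand), went from 7.08, 7.25 and 7.39 CPM to 21.2, 25.1 and 24.4 CPM. This was a 3.26-fold rise with the groups far apart (log2 fold change 1.71, SE 0.0968, edgeR adjusted p = 4.59e-15). TNFSF9 (4-1BB ligand; chromosome 19, 6531026 to 6535924, plus strand) stood at 7.57, 8.33 and 8.66 CPM in controls and 22.4, 22.8 and 21.8 CPM with melittin, 2.73-fold higher (edgeR adjusted p = 5.23e-14). The melittin libraries were again all above the controls.

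TNFSF18, the ligand of the receptor GITR (chromosome 1, 173039202 to 173050941, minus strand), showed the largest fall among the members tested. It had 519, 554 and 460 counts in controls and 85, 55 and 67 with melittin, that is 25.5, 26.1 and 26.6 CPM against 5.53, 3.06 and 4.49 CPM. The level was 6.05-fold lower (log2 fold change −2.60, SE 0.122, edgeR adjusted p = 6.14e-17). TNFSF4 (OX40 ligand), which lies beside it, had control and melittin means of 12.4 ± 0.852 and 14.2 ± 0.433 CPM (SD, n = 3) and was not called (log2 fold change 0.19, edgeR adjusted p = 0.0644). It passed without control replicate 3 (0.23), and its sign turned under total-count scaling (−0.038). TNFSF8 (CD30 ligand) had 12 counts over all libraries, and CD40LG, a gene of activated T cells, had 0.

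The 3 ligands of survival and differentiation were low and none was called. TNFSF13B (BAFF, a survival factor of B cells) was at 3.64, 2.82 and 3.41 CPM in controls and 2.02, 3.45 and 2.55 CPM with melittin. The groups overlapped through melittin replicate 2, without which it passed as lower (log2 fold change −0.53, against −0.28 with all libraries), as it did under total-count scaling (−0.51). TNFSF13 (APRIL, which acts on plasma cells) was at 1.62, 1.08 and 0.924 CPM and then 0.390, 0.501 and 1.27 CPM, with melittin replicate 3 above 2 of the controls. Without that library it passed as lower (−1.43, against −0.78), and also under total-count scaling (−1.01), with limma-voom (−0.89) and with the length trend removed (−0.97). TNFSF11 (RANKL, the ligand that drives osteoclast formation) had 24, 33 and 22 counts in controls and 9, 22 and 8 with melittin, and passed as lower without melittin replicate 2 (−1.25, against −0.73), under total-count scaling (−0.96), with limma-voom (−0.80) and with the length trend removed (−0.89). TNFSF13 overlaps TNFSF12-TNFSF13 on the same strand.

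Of the 8 receptors with a death domain, 5 were tested, of which 4 fell and TNFRSF10B rose, all by less than 2-fold. Over all genes tested 76.4% were called and 38.3% were lower. None of the 5 passed the test against 1.5-fold. TNFRSF1A, the TNF receptor found on most cells (chromosome 12, 6328757 to 6342114, minus strand), was at 80.2, 80.2 and 82.0 CPM in controls and 72.0, 71.7 and 71.5 CPM with melittin. Though the groups were apart, the change was only −0.17 on the log2 scale (SE 0.0404, edgeR adjusted p = 0.000447), and −0.40 under total-count scaling. FAS (chromosome 10, 88953813 to 89029605, plus strand) was at 9.39, 9.23 and 8.84 CPM and then 6.37, 7.29 and 7.30 CPM, again without overlap (log2 fold change −0.39, SE 0.117, edgeR adjusted p = 0.00412). Its call ended once a trend on gene length was taken out (−0.08). The table lists FAS with a length of 29313 bases, against 1271 to 8989 for the other members tested, and it overlaps STAMBPL1 on the same strand. TNFRSF21 (DR6) went from 25.9 ± 2.27 to 17.5 ± 0.887 CPM (SD, n = 3). NGFR had 32 and EDAR 2 counts over all libraries, too few to test.

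The TRAIL receptors, which lie side by side on chromosome 8, changed in different directions. TNFRSF10A (DR4, a death receptor) was at 24.8, 27.2 and 26.4 CPM in controls and 18.1, 18.4 and 22.3 CPM with melittin (log2 fold change −0.42, SE 0.0815, edgeR adjusted p = 4.24e-05). TNFRSF10B (DR5, the other death receptor of TRAIL) was at 122, 124 and 125 CPM and then 164, 152 and 167 CPM (log2 fold change 0.38, SE 0.0352, edgeR adjusted p = 1.52e-10), and at 0.15 on the log2 scale under total-count scaling. TNFRSF10D, a decoy with a truncated death domain, was at 67.3, 62.5 and 61.3 CPM and then 147, 136 and 136 CPM, 2.19-fold higher (edgeR adjusted p = 3.31e-19). For each of these receptors the 3 control and 3 melittin values were apart. The decoy TNFRSF10C had 8 counts in control replicate 2, 2 in melittin replicate 2 and 0 elsewhere, and it overlaps a gene without a name on the same strand. These genes are related copies, and reads that fit more than 1 of them cannot be assigned with certainty.

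A ratio within each library, chosen after the values were seen, puts the decoy beside the death receptors. FPKM, the unit used for it, divides the reads of a gene by its length and by the total of the library. TNFRSF10D over the sum of TNFRSF10A and TNFRSF10B was 0.580, 0.519 and 0.512 in controls and 1.07, 1.05 and 0.937 with melittin, so that decoy and death receptor transcripts were about level in the melittin libraries. The exact two-sided permutation test gave p = 0.1, the smallest that 3 against 3 libraries allow. As the ratio was built from values already seen, this outcome adds no support.

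Osteoprotegerin, encoded by TNFRSF11B (chromosome 8, 118923557 to 118951885, minus strand), is a secreted decoy that binds RANKL and TRAIL. It was at 2.36, 3.01 and 2.71 CPM in controls and 0.585, 1.34 and 0.335 CPM with melittin, where replicate 2 was the highest. The fall was 3.43-fold (log2 fold change −1.78, SE 0.322, edgeR adjusted p = 1.73e-05), and −2.53 on the log2 scale without melittin replicate 2. RANK, the receptor of RANKL, is encoded by TNFRSF11A, which was at 19.6 ± 0.422 and 21.2 ± 1.47 CPM and not called (log2 fold change 0.11, edgeR adjusted p = 0.185). Its sign turned under total-count scaling (−0.12), and it passed as higher with the length trend removed (0.24). The decoy TNFRSF6B had 0 counts in every library and overlaps RTEL1-TNFRSF6B on the same strand.

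Receptors without a death domain held 8 tested members of 15, of which 5 rose, 0 fell and 3 were not called. Over all genes tested 76.4% were called, 38.1% higher and 38.3% lower. Under total-count scaling LTBR and TNFRSF12A of this list passed as lower. CD40, the receptor of CD40 ligand that licenses antigen-presenting cells (chromosome 20, 46118271 to 46129863, plus strand), stood at 21.1, 19.3 and 20.4 CPM in controls and 69.6, 73.0 and 68.7 CPM with melittin. It rose 3.47-fold, with the lowest melittin library far above the highest control (log2 fold change 1.80, SE 0.0573, edgeR adjusted p = 9.92e-21). TNFRSF1B (TNFR2, the TNF receptor of leukocytes; chromosome 1, 12166991 to 12209228, plus strand) was at 221, 227 and 226 CPM and then 423, 406 and 406 CPM, a 1.83-fold rise without overlap (edgeR adjusted p = 4.55e-21). TNFRSF1B and TNFRSF1A, the 2 receptors of TNF, thus moved apart. In FPKM the ratio of TNFRSF1B to TNFRSF1A was 3.07, 3.16 and 3.07 in controls and 6.54, 6.31 and 6.32 with melittin, and the exact two-sided permutation test again gave its smallest value, p = 0.1. This ratio too was chosen after the values were seen. Since TNFRSF1B rose and TNFRSF1A fell, each without overlap, the outcome of that test was fixed beforehand and adds no support.

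TNFRSF9 (4-1BB, the receptor of the TNFSF9 product) was at 21.9, 26.2 and 27.7 CPM in controls and 37.4, 33.7 and 41.9 CPM with melittin, a log2 fold change of 0.57 (SE 0.0807, edgeR adjusted p = 3.6e-07) that missed the test against 1.5-fold. TNFRSF18 (GITR; chromosome 1, 1203508 to 1206592, minus strand) had 4, 4 and 2 counts in controls and 25, 26 and 26 with melittin. These are low counts, but the groups were far apart (log2 fold change 3.18, SE 0.426, edgeR adjusted p = 1.59e-07). TNFRSF4 (OX40), the next member on the chromosome, had 0 counts in each control library, and 8, 2 and 8 in the melittin libraries. The pooled melittin counts stood 7.32-fold above a floor of 3 counts over the control group. The spread and counting error of the melittin libraries are left out, so this is no lower bound. It was too low for the main test and passed as higher without a low-count filter (edgeR adjusted p = 0.000215).

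LTBR, the lymphotoxin beta receptor, was at 46.5, 50.1 and 47.0 CPM in controls and 41.3, 45.4 and 46.6 CPM with melittin. The groups overlapped slightly and it was not called (log2 fold change −0.11, edgeR adjusted p = 0.0836). It passed as lower under total-count scaling (−0.34), without a low-count filter (−0.13) and without melittin replicate 3 (−0.14). TNFRSF12A, the receptor of TWEAK, was at 44.0 ± 3.07 and 45.1 ± 2.37 CPM (SD, n = 3; log2 fold change 0.04, edgeR adjusted p = 0.537). Its sign turned without control replicate 1 (−0.021), and it passed as lower under total-count scaling (−0.19) and with the length trend removed (−0.21). The remaining receptors of this list were at or near 0: CD27 had 3 counts over all libraries, TNFRSF8 4, TNFRSF17 4, TNFRSF13C 2 and TNFRSF13B 0, and TNFRSF19 had 4. CD27 overlaps TAPBPL on the same strand, so its near-0 count may leave out reads in the overlap.

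Levels were compared between genes in FPKM. TNF was the highest ligand in controls, at 83.3 to 90.3 FPKM, followed by TNFSF15 at 34.7 to 36.4 and TNFSF14 at 16.0 to 16.8. With melittin the order of the first 2 was exchanged, TNFSF15 at 69.2 to 72.5 and TNF at 57.2 to 58.7 FPKM. Their order in controls rests on the listed gene lengths, 7785 bases for TNFSF15 and 1678 for TNF. In CPM, which leaves length out, TNFSF15 was above TNF in controls too, with means of 257 and 135. TNFSF18 went from the fourth to the seventh place of 13 ligands. In controls the ranges of TNFSF9 and CD70 overlapped, as did those of LTB and TNFSF4 and of TNFSF13 and TNFSF11. With melittin TNFSF18, TNFSF10, LTA and LTB each overlapped the next in order, TNFSF13B being the last of them, and TNFSF13 overlapped TNFSF11. FPKM is scaled by library totals, so a comparison of its values between the groups carries the shift of all genes given above, while the order within a library does not.

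TNFRSF1B was the highest receptor in both groups, at 63.5 to 65.2 FPKM in controls and 99.1 to 104 with melittin. Next came TNFRSF10B and TNFRSF12A in controls, whose ranges overlapped, and TNFRSF10D with melittin, at 35.4 to 38.5 FPKM. CD40 rose from the tenth place (3.73 to 4.07 FPKM, overlapping TNFRSF9) to the sixth (11.3 to 11.96 FPKM, apart from its neighbours). In controls LTBR and TNFRSF21, and TNFRSF14 and TNFRSF11A, could also not be told apart by their ranges. With melittin this held for LTBR and TNFRSF10A, TNFRSF10A and TNFRSF9, and TNFRSF11B and FAS. The place of FAS rests on the long gene length in the table.

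**Figure D3:**
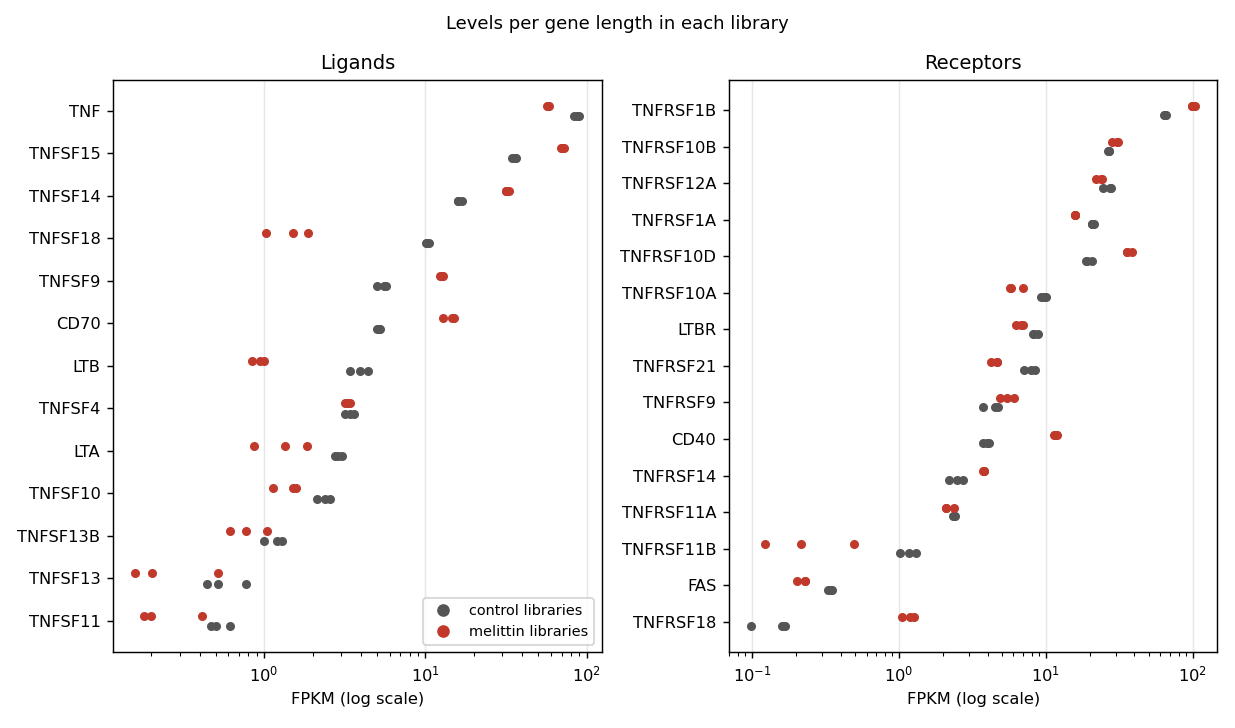
FPKM on a log axis for the 13 ligands and 15 receptors with at least 10 counts in 3 libraries, ordered by the control mean; each point is 1 library, grey for control and red for melittin. TNFSF15 passes TNF with melittin, and TNFRSF1B is the highest receptor in all 6 libraries.

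Several members lie together in the genome. LTA, TNF and LTB, within 10.47 kb of chromosome 6, all fell. TNFSF9, CD70 and TNFSF14, within 139.6 kb of chromosome 19 and with no other gene of the table between them, all rose. The TRAIL receptor genes, within 205.0 kb of chromosome 8, went both ways, and on chromosome 1 TNFSF18 fell while TNFSF4, 133 kb away, was not called. TNFRSF18 and TNFRSF4, 4.73 kb apart on chromosome 1, both had more counts with melittin in all 3 libraries. These groups were described after the values were seen, and whether nearness bears on the changes was not tested.

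**Figure D4:**
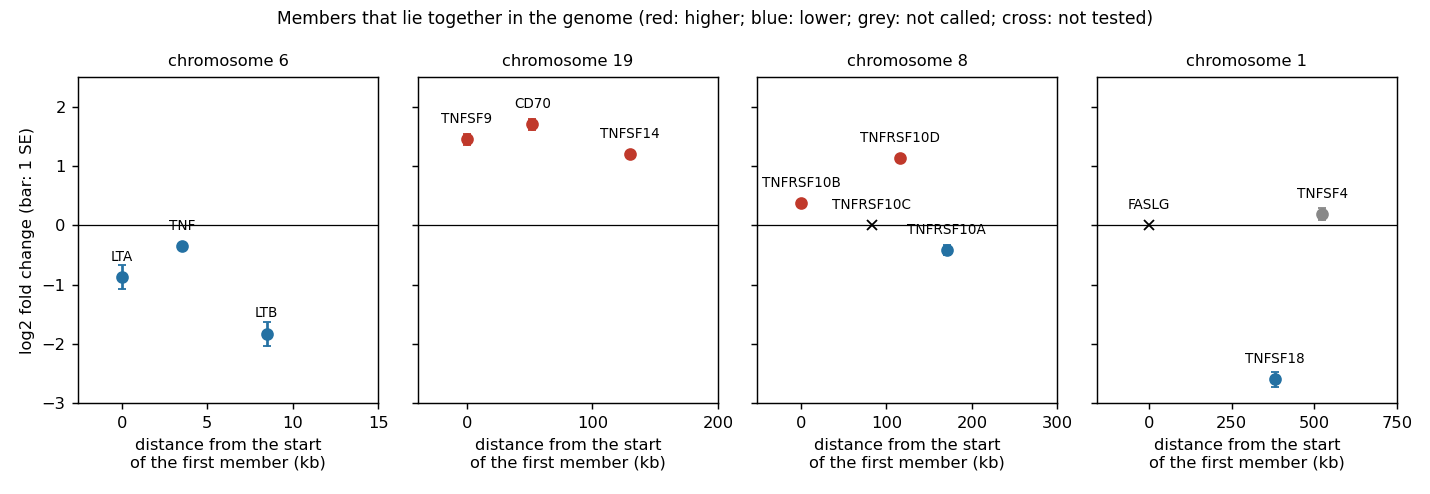
Log2 fold change (y axis, bars 1 SE) against the distance in kb from the start of the first member (x axis) for 4 groups of neighbouring members; a cross, placed at 0, marks a member with too few counts to test. The 3 members on chromosome 6 lie below 0 and the 3 on chromosome 19 above 1, while those on chromosomes 8 and 1 differ among themselves.

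Ligands and their receptors can be set side by side. TNFSF14 and TNFRSF14 both rose, as did TNFSF9 and TNFRSF9. TNF and LTA fell with TNFRSF1A while TNFRSF1B rose, and TNFSF10 fell with TNFRSF10A while TNFRSF10B and TNFRSF10D rose. TNFSF18 fell while TNFRSF18 rose. CD70 and TNFSF15 rose where the transcripts of CD27 and TNFRSF25 were at or near 0, and CD40 rose where CD40LG was at 0. Transcript levels say nothing of protein at the cell surface or of shed ligand.

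Genes that act around these receptors were taken from 9 lists of 82 genes, of which 77 were tested, 34 higher, 23 lower and 20 not called (median log2 fold change 0.08), beside 38.1% higher and 38.3% lower over all genes tested. The share called thus lay near the background of 76.4%, and the counts by list below are descriptions. Under total-count scaling 24 were higher and 38 lower, so directions of small changes depend on the scaling.

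Of 11 adaptors tested, 7 rose and 2 fell, but only 2 rose under total-count scaling. CRADD, a death-domain adaptor that joins RIPK1 to caspase-2, went from 5.89 ± 0.669 to 27.4 ± 2.52 CPM (SD, n = 3), and TRAF2, which joins TNF receptors to ubiquitin ligases, from 22.0 ± 0.325 to 38.7 ± 0.729 CPM. RIPK1, the kinase at the branch between survival and death signalling, fell from 28.2 ± 1.35 to 14.4 ± 0.788 CPM. TRAF1 rose by 0.30 on the log2 scale, which was no longer called under total-count scaling (0.06). Of 13 death effectors and their brakes, 2 rose and 5 fell, against 1 and 9 under total-count scaling. CFLAR, which encodes the caspase-8 inhibitor c-FLIP, rose from 165 ± 2.54 to 291 ± 4.18 CPM, while CASP8 fell from 38.8 ± 1.20 to 28.01 ± 0.577 CPM and BID, a substrate of caspase-8, from 86.9 ± 1.59 to 70.9 ± 0.361 CPM. BIRC3, a ubiquitin ligase that holds back cell death, was at 72.8 ± 1.60 and 76.9 ± 3.97 CPM and not called. It passed as higher without melittin replicate 2 (log2 fold change 0.12) and with the length trend removed (0.16), and as lower under total-count scaling (−0.15).

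In the ubiquitin list 6 of 11 tested members rose and 1 fell, while 4 fell under total-count scaling and 0 with the length trend removed. TNFAIP3 (A20), which edits ubiquitin chains to end TNF signalling, went from 132 ± 4.14 to 278 ± 3.58 CPM, its partner TNIP1 from 167 ± 0.158 to 339 ± 3.37 CPM and RBCK1, a part of the linear ubiquitin ligase, from 49.2 ± 0.850 to 78.6 ± 1.65 CPM. Kinases downstream of the receptors rose in 4 and fell in 6 of 13 cases, and only 2 rose under total-count scaling. Among those that fell were MAPK8 (JNK1), from 42.1 ± 0.884 to 25.9 ± 1.49 CPM, its activator MAP2K4, from 24.7 ± 1.13 to 13.9 ± 1.69 CPM, and IKBKB, from 47.4 ± 1.69 to 34.3 ± 1.95 CPM. In the list of non-canonical NF-kB 2 of 8 rose and 3 fell, but 6 fell under total-count scaling and 4 rose with the length trend removed. There NFKB2, whose product is processed to p52, had a log2 fold change of 0.63, TRAF2 of 0.81 and CHUK, the kinase IKK-alpha, of −0.20.

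Of 9 genes of ligand and receptor shedding, 4 rose and 3 fell, but 5 fell under total-count scaling. ADAM17, the protease that releases TNF, fell from 279 ± 5.89 to 206 ± 4.83 CPM, and SPPL2A, which cleaves the stub of TNF left in the membrane, from 185 ± 3.25 to 109 ± 2.44 CPM. RHBDF1, a rhomboid-like protein that takes part in ADAM17 maturation, rose from 32.5 ± 1.89 to 75.3 ± 3.97 CPM, and FURIN, the convertase that processes ADAM17 and several ligands of the family, from 247 ± 5.49 to 411 ± 14.2 CPM. Genes of TNF mRNA decay and translation rose in 5 and fell in 3 of 10 cases, and 5 fell under total-count scaling. ZFP36 (tristetraprolin), which binds TNF mRNA and speeds its decay, rose from 36.0 ± 1.88 to 95.5 ± 3.21 CPM, ZC3H12A (regnase-1), an endonuclease of cytokine mRNA, from 55.4 ± 2.77 to 169.7 ± 4.06 CPM, and ZFP36L2 from 56.0 ± 0.646 to 117 ± 4.83 CPM. Genes named for induction by TNF, or for likeness to TNFAIP8, rose in 6 and fell in 2 of 8 cases. The 2 that fell, TNFAIP8L2 and TNFAIP8L3, are named for likeness to TNFAIP8, as is TNFAIP8L1, which rose. TNFAIP6 rose from 13.4 ± 0.489 to 51.0 ± 1.99 CPM, and TNFAIP8L3 fell from 97.3 ± 0.362 to 45.7 ± 1.34 CPM. Among the family members outside the name rule, RELT was at 19.3 ± 1.52 and 18.6 ± 2.40 CPM and not called, EDA had 42 counts in all and EDA2R 0.

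**Figure D5:**
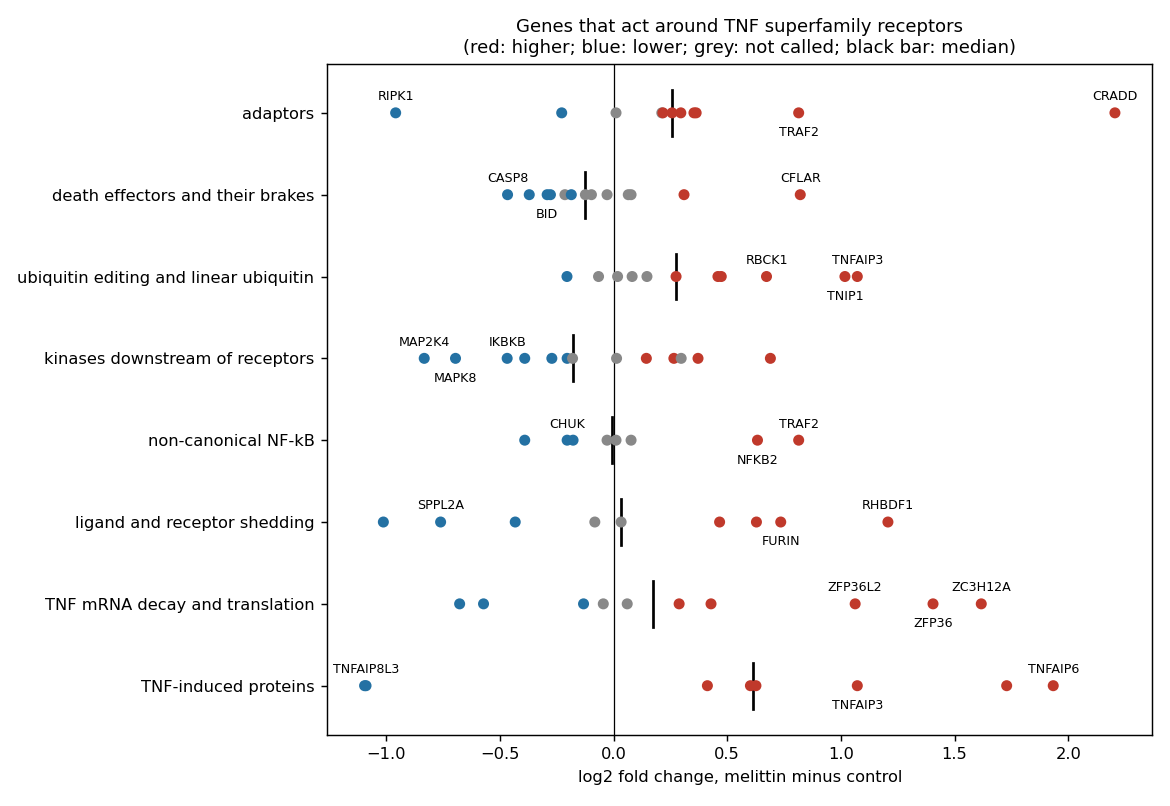
Log2 fold change (x axis) of each tested gene in 8 lists (rows); colours give the call at an adjusted p of 0.05 and black bars the median, and the labelled genes are those with the smallest adjusted p in each list. CFLAR lies to the right of 0 and CASP8 to the left, and the medians of the 8 lists lie between −0.18 and 0.61.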

How the data were processed

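The authors deposited raw read counts per gene and library, with human gene identifiers, names, positions and lengths. The deposited FPKM values equal count divided by gene length and library total, within a relative deviation of 2.2e-09, and a further deposited table repeats them. Per the submitters' processing notes the build was GRCh38; for aligner, counting program, strand setting and annotation nothing was given in the sources used here. The reference sequences at hand are of mouse and were not used, so no sequence is printed.

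Counts were fitted with edgeR 4.0.16 in R 4.3.3 over all genes kept by filterByExpr (12029), with TMM factors, glmQLFit and glmQLFTest (two-sided), Benjamini-Hochberg adjustment over all genes tested and a threshold of 0.05. SE was computed as the size of the log2 fold change over the root of F. CPM of 1 count was 0.0471 to 0.0670. Alternatives were other scalings (median of ratios, totals, without the 20 most abundant genes), DESeq2 1.42.0, limma-voom (limma 3.58.1), other filters, removal of the trend on gene length, a replicate block, a test against 1.5-fold (glmTreat) and leaving out each library. On simulated data 65, 66 and 66 of 11932 genes tested were changed 1.5-fold, 2-fold and 4-fold, in either direction. Recovery was 80% at 1.5-fold, 97% at 2-fold and 100% at 4-fold, and 6.19% of calls were false. In the real libraries 76.4% of genes were called, a breadth of change that was not simulated, so these rates cannot be carried over.

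Members, lists and tests were chosen with earlier results of these data known. Members at least 2-fold changed with groups apart, and 9 others fixed by name, are given in every library. In each pathway list the 3 called genes with the smallest adjusted p, or the 2 most abundant where none was called, and 6 fixed genes are named. All pairs of libraries differed by more than sampling noise (chi-square per degree of freedom 1.73 or more), so none was taken as a repeat deposit of another; this does not show that they were separate cultures. The summed level of the epithelial and prostate marker list is not reported here.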

Additional observations from a re-analysis of the deposited data

How the results depend on the processing

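Of the 28 members tested, all kept their direction and side of the threshold with median-of-ratios factors, with library sizes that leave out the 20 most abundant genes, with DESeq2 and with filters at 1 CPM or 10 counts in 3 libraries. The test against 1.5-fold lowered the members called lower from 10 to 3, the pathway genes called higher from 34 to 13 and those called lower from 23 to 8; it asks for a larger change by construction. Members that lost their call there were TNF, LTA, TNFSF10, TNFRSF1A, FAS, TNFRSF10A, TNFRSF10B, TNFRSF21 and TNFRSF9, and among named pathway genes BID, TRAF1, CASP8, NFKB2, IKBKB, ADAM17 and CHUK. Under total-count scaling 38 pathway genes were lower, and TNFRSF12A (−0.19), TNFSF4 (−0.038), TNFRSF11A (−0.12) and BIRC3 (−0.15) changed sign. With the length trend removed TNFRSF12A (−0.21) and RELT (0.011) changed sign. The causes of these changes were not tested. With 1 library left out TNFRSF12A ran from −0.021 to 0.080 and RELT from −0.15 to 0.025, while the members called higher numbered 11 to 12 and lower 10 to 12.

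No sign was seen that the replicate numbers shared by the groups pair the libraries: deviations of same-numbered libraries correlated at −0.0461, 0.0178 and −0.0191. A pairing with effects below the spread between libraries would not show in this way. With the replicate block 11 members were higher and 10 lower, and 34 and 23 pathway genes, as without it. Low counts limit TNFSF11, TNFSF13, TNFRSF11B and TNFRSF18, and the 17 members too low to test.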
